A study of Caenorhabditis elegans with 2 samples.

Results

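The starts of snoRNA genes were examined for LIN-39-eGFP binding in L1 larvae of the nematode Caenorhabditis elegans. A window of 250 bp to either side of the annotated start was drawn around each of the 346 genes with the type snoRNA in the Ensembl annotation of the WBcel235 (ce11) genome, out of 46890 gene starts of all types. Each window was scored by the strongest peak summit inside it, and windows were divided by whether the snoRNA gene lay inside an intron of a protein-coding gene (169 genes), outside all protein-coding genes (124 genes, called intergenic) or across an exon or gene edge (53 genes). The chromatin immunoprecipitation sequencing (ChIP-seq) experiment had 1 group of 2 biological replicates. Both were whole L1 larvae, pooled male and female, of strain OP18, which carries the mutation unc-119(ed3) on chromosome III and the integrated transgene wgIs18 with an eGFP fusion of lin-39. The labels give lin-39 as the antibody target and eGFP-lin-39 in the description. They name neither a wild-type nor a lin-39 mutant sample, so the signal has no untagged or factor-free comparison here, and a whole-animal sample does not tell in which cells a site was bound.

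Small nucleolar RNAs (snoRNAs) guide the chemical modification of other RNAs, above all ribosomal RNA. Members of the C/D class carry a C box near the 5′ end and a D box near the 3′ end and direct 2′-O-methylation by fibrillarin, whereas members of the H/ACA class end in an ACA box and direct pseudouridylation by dyskerin. Many snoRNAs are processed from the introns of host genes, while others have promoters of their own, transcribed by RNA polymerase II or III. Small nuclear RNA (snRNA) genes rely on a proximal sequence element upstream of the start, and RNA polymerase III genes such as tRNA genes rely on A and B boxes. LIN-39 is the Hox protein of the mid-body, known for patterning vulval precursor cells, ventral cord neurons and migrating neuroblasts.

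Letters upstream of the snoRNA genes with strong summits are shown first, because a shared stretch recurred there. Each line runs 5′ to 3′ on the strand of the gene, from 100 bases upstream of the start through the first 20 bases of the gene, in the ce11 build (RefSeq sequence). Capitals mark a 9-base element, CGNAACNCG, and the letters GTC where they followed it after 6 further bases. The first 6 lines are the windows with the highest pooled signal apart from F54E7.10, Y37E3.20 and F39B2.14. The other 3 lines are the next strongest windows that held the element, picked with their values in view.
Y53F4B.47: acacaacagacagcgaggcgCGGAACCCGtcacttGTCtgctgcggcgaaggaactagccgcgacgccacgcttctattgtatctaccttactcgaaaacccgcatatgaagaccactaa
ZK994.7: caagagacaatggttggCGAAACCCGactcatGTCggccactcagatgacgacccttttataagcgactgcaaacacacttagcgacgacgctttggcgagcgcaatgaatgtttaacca
C36E8.11: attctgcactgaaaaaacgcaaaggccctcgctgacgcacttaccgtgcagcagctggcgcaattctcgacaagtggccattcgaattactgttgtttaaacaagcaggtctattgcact
W04D2.7: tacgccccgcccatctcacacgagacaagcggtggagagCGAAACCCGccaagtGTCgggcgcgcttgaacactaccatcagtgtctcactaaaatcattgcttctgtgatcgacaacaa
C18A3.12: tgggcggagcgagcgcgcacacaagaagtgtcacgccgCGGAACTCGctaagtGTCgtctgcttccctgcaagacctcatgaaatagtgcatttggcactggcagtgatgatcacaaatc
M7.15: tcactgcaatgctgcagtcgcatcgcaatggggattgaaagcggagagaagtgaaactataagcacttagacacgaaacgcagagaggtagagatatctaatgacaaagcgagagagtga
smy-2: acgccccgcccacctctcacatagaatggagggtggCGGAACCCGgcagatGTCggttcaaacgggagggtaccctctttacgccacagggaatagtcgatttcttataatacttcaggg
F01D5.12: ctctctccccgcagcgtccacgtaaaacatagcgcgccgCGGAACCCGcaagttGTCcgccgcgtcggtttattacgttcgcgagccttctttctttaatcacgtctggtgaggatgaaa
C16D9.10: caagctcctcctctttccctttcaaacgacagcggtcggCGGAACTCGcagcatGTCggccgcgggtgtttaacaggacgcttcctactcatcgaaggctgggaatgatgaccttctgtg

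A further set of windows held a B box core instead, GTTCNANNC, the letters that mark the inner promoter of tRNA genes. Apart from T02E1.9 and ZK484.9, the 3 strongest are printed over the same stretch with the core in capitals, and were likewise picked with their values in view.
T03F7.8: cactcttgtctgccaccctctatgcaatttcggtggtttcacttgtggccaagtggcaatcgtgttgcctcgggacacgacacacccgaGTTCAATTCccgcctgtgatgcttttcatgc
F12F6.11: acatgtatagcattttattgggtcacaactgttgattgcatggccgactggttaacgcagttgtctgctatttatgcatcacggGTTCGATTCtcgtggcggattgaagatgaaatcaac
W03C9.9: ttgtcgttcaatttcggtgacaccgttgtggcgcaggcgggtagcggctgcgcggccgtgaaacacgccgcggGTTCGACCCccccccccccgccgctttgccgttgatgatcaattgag

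An optimal LIN-39-eGFP summit lay in 48 of the 346 snoRNA windows (13.9%, exact 95% binomial interval 10.41 to 17.97), against 2.41% of the windows at all gene starts and 3.61% of the windows at protein-coding starts. The optimal set is the submitters' list of 1488 reproducible peaks for both replicates together, and these are the 1488 strongest of the 30000 ranked regions of the pooled list. The 48 windows held 47 distinct summits, 3.16% of the optimal set, because C51F7.3 and C51F7.4 shared a summit. Among other genes of small RNAs, 20 of 129 snRNA windows (15.5%) and 34 of 612 tRNA windows (5.56%) held one. All 346 snoRNA genes were scored, so the interval is a description. It treats windows as independent and leaves out variation between the replicates. No test was run, since snoRNA genes were chosen with these peaks known.

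In the ranked lists, which also hold regions near background, a pooled summit lay in 128 snoRNA windows (37.0%), against 20.9% of all gene windows and 19.0% of protein-coding windows. Replicate 1 placed a summit in 137 (39.6%, against 20.8% of all gene windows) and replicate 2 in 136 (39.3%, against 19.8%). Among other genes of small RNAs, a pooled summit lay in 292 of 612 tRNA windows (47.7%) and in 49 of 129 snRNA windows, a share close to that of snoRNA windows. The pooled shares of piRNA (24.3%) and miRNA windows (17.6%) were lower. A high share in the ranked lists was thus not particular to snoRNA genes. No list held a summit in 171 of the 346 windows. Signal below is the deposited value of a region, a score the submitters set against the control on a scale they do not state, and it is compared only within a list. Over the 48 windows the optimal signal ran from 50.2 to 291.2 with a median of 85.9, close to the median of 84.7 over all gene windows with an optimal summit.

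Intronic and intergenic snoRNA genes both held optimal summits. The count was 21 of 169 intronic windows (12.4%, interval 7.86 to 18.37) and 23 of 124 intergenic windows (18.5%, interval 12.14 to 26.52), with median signals of 80.6 and 86.9. The intervals for optimal summits overlap. With windows of 1000 bp either side the order turned, to 24.9% of intronic and 23.4% of intergenic windows. Ranked pooled summits were counted in 55 intronic (32.5%, interval 25.55 to 40.17) and 62 intergenic windows (50.0%, interval 40.89 to 59.11). These intervals did not overlap, and the share over all gene windows was 20.9%. Windows can share summits, so the intervals are descriptions, and the difference between the contexts was not tested. Intronic genes on the strand of the host held 15 in 142 windows (10.6%) and those on the opposite strand 6 in 27 (22.2%, interval 8.62 to 42.26). The remaining 4 optimal summits lay at the 53 genes that touched an exon or a gene edge (7.55%).

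**Figure D1:**
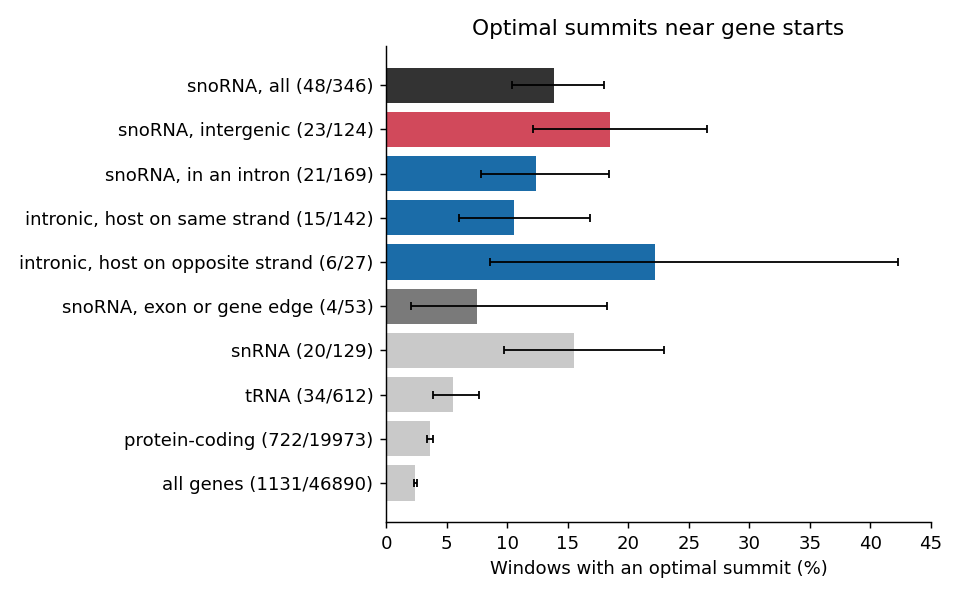
Percentage of 500 bp windows at gene starts with an optimal LIN-39-eGFP summit, for snoRNA genes by context and for other gene types, with exact 95% binomial intervals as bars and counts in brackets. All snoRNA genes reached 13.9% and snRNA genes 15.5%, against 3.61% of protein-coding and 2.41% of all gene starts.

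Most of the summits sat just upstream of the snoRNA gene start. In 39 of 48 windows the summit was upstream of the annotated start and in 9 downstream, with a median of 40.5 bp upstream and quartiles of 66.8 and 8.75 bp. Within 100 bp of the start lay 41 of the 48. At the 722 protein-coding windows with an optimal summit the median was 137.5 bp upstream, and 93.4% were upstream, against 81.2% at snoRNA genes. How closely the annotated start marks the start of transcription was not tested for either gene type, so the distances may not be alike. Intronic snoRNA genes had a median of 27 bp upstream (19 of 21 upstream) and intergenic genes 42 bp (17 of 23). Placed from the replicates alone, summits in the same 48 windows were upstream in 38 by replicate 1, with a median of 35.5 bp, and in 39 by replicate 2, with a median of 41 bp.

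**Figure D2:**
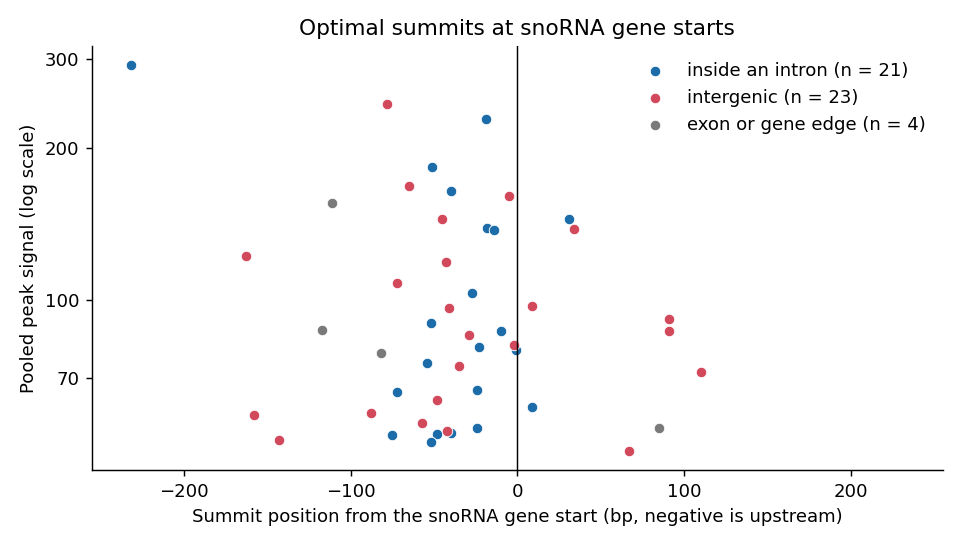
Position of the 48 optimal summits from the snoRNA gene start (horizontal axis, bp, negative is upstream) against the pooled peak signal (vertical axis, log scale), coloured by context. 41 of 48 points lie within 100 bp of the start, and the strongest, F54E7.10, lies 232 bp upstream.

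Most of these summits were far from the annotated start of any protein-coding gene, taken as the outer 5′ end of the whole gene. Starts of single transcripts inside a gene were not measured, so a summit may lie nearer to one of those. The distance exceeded 1000 bp in 28 of 48 windows and was within 250 bp in 5. Leaving out the 34 snoRNA genes whose own start was within 250 bp of a protein-coding start kept 42 of 312 windows with an optimal summit (13.5%). At intronic genes the summit was over 1000 bp from the host gene's start in 19 of 21, with a median of 2715 bp and a range of 152 to 18480 bp. Of the 21 hosts of these snoRNA genes 1 (4.76%), rps-12, held an optimal summit in the window at its own start, which includes the F54E7.10 summit. The share of all protein-coding windows was 3.61%, and 1 host is too few to set beside it. Of all 149 hosts 17 (11.4%) had an optimal summit at their own start, and the difference from 3.61% was not tested. In 14 windows the summit also lay within 250 bp of a start annotated ncRNA, and in none within 250 bp of a tRNA, snRNA, piRNA or miRNA start. No such count was made for optimal summits outside the snoRNA windows, so whether 14 is many or few is not shown.

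F54E7.10 (132 bp, chrIII:5679378-5679509, plus strand), in an intron of rps-12, a gene of a small-subunit ribosomal protein, held the highest signal at 291.2 (rank 43 of the pooled list), with 165.3 in replicate 1 (rank 50) and 125.6 in replicate 2 (rank 39). Its summit was 232 bp upstream, 152 bp from the rps-12 start and 141 bp from the start of ska-3. Of the 21 intronic windows with an optimal summit it was the 1 whose summit lay within 250 bp of the host start, so a peak of the snoRNA gene and one of the host promoter cannot be told apart there. F54E7.10 ended in an ACA box, shown in capitals.
F54E7.10: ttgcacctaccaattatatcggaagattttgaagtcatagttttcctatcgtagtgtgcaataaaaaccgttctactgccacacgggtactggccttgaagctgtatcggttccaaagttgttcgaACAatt

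The other strong intronic windows had summits close to the snoRNA itself. ZK994.7 (chrV:8500579-8500645, plus strand), in an intron of the peroxidasin gene pxn-1, had 183.4, with 110.1 (rank 146) and 77.5 (rank 135) in replicates 1 and 2, and its summit was 51 bp upstream and 5639 bp from the pxn-1 start. W04D2.7, in an intron of the innexin gene inx-11, had 163.9 (103.1 and 56.5) at 40 bp upstream. smy-2, in an intron of C33A12.3, had 144.2 (81.2 and 67.7) at 31 bp downstream. SmY RNAs are nematode small nuclear RNAs linked to the trans-splicing of spliced leaders, and smy-2 and smy-3 carry the type snoRNA in this annotation. The other 344 genes are known there by sequence names only, so the counts are of genes typed snoRNA, and how many of them are SmY or other small RNAs was not tested. F01D5.12, within F01D5.10, had 138.7 (58.8 and 88.4) at 18 bp upstream, and C08D8.3, within C08D8.1, had 137.5 (58.5 and 66.3) at 14 bp upstream. Replicate 1 ranked both at 569 and 576 and replicate 2 at 93 and 202.

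Y37E3.20, in an intron of pcyt-2.1, a gene of phospholipid synthesis, had the next highest intronic signal after F54E7.10 with 227.6 at 19 bp upstream. Its ranks differed more between replicates than those of any other optimal window, 215 in replicate 1 (96.6) and 23 in replicate 2 (147.1), a ratio of 9.35.

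Among intergenic genes Y53F4B.47 (80 bp, chrII:15025814-15025893, minus strand) came first with 244.1, rank 68, and 146.5 (rank 67) and 107.7 (rank 58) in the replicates. Its summit was 78 bp upstream and 143 bp from the start of cmtr-1, an mRNA cap methyltransferase gene. C36E8.11 had 168.3 (115.4 and 49.5) at 65 bp upstream, and tif-1A began 256 bp from the summit. C18A3.12 (chrII:5701662-5701726, plus strand) had 160.5 (103.6 and 62.5) at 5 bp upstream, with the nearest protein-coding start 2586 bp away. M7.15 had 144.6 (69.6 and 82.1), C16D9.10 had 138.1 (73.8 and 66.4), W06H8.17 had 121.9 (73.8 and 59.7) and smy-3 had 119.0 (83.5 and 46.0). Of these 7 summits, C16D9.10's alone lay downstream, at 34 bp. F39B2.14, at the edge of the ciliary gene tmem-107, had 155.2 (84.6 and 69.8), and its summit was 50 bp from the tmem-107 start.

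C18A3.12 and C16D9.10 had the letters of C/D snoRNAs, with a C box (TGATGA) near the 5′ end and a D box (CTGA) near the 3′ end in capitals. They are shown because their starts are in the sequences printed above.
C18A3.12: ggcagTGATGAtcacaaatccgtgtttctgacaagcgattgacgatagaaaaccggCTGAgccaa
C16D9.10: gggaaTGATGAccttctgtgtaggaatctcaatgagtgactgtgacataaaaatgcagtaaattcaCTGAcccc

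The other 33 windows had signals from 50.2 to 107.9. The intronic genes were Y55F3BR.9, C16D9.11, C07A9.14, T06D8.11, K02C4.7, ZK484.9, Y38F2AR.14, T03F7.8, C05H8.3, C51F7.3, C05D2.15, W08G11.6, T08B2.13 and Y43F8C.22. Their hosts included rol-3, a receptor tyrosine kinase gene, ncx-7, a sodium-calcium exchanger gene, ckk-1, a calmodulin-dependent kinase kinase gene, and fars-1, a phenylalanyl-tRNA synthetase gene. The intergenic genes were F59C6.15, D2021.6, T26A8.6, F25H2.15, Y67A10A.14, F47G4.9, Y74C9A.6, F09G2.14, K07C10.2, F12F6.11, W03C9.9, R166.10, K02C4.8, T08B6.64, T25D3.8 and F32E10.10. T02E1.9, T23G11.12 and C51F7.4 touched an exon or a gene edge.

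The upstream element CGNAACNCG, sought in the 150 bp before each start on the strand of the gene, was found at 21 of the 48 genes with an optimal summit (43.8%). It was found at 3 of 80 genes with a ranked summit only (3.75%) and at 8 of 218 with no pooled summit (3.67%). Its letters were chosen after the sequences of the bound windows had been seen, so these shares describe the letters and test nothing. The same stretch held it at 0.355% of protein-coding genes, 0.493% of all genes and 41 of 129 snRNA genes (31.8%). On the opposite strand it was found at 2 of the 48 genes (4.17%). Read the other way, 21 of the 32 snoRNA genes with the element had an optimal summit (65.6%), as did 27 of the 314 without it (8.6%). The split was present in both contexts, with 12 of 17 intronic (70.6%) and 9 of 15 intergenic (60.0%) genes that had the element, and 9 of 152 (5.92%) and 14 of 109 (12.8%) of those that lacked it. At snRNA genes 13 of 41 with the element (31.7%) and 7 of 88 without it (7.95%) had an optimal summit, and at protein-coding genes 9 of 71 (12.7%) and 713 of 19902 (3.58%).

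Its place was nearly fixed. At the 21 genes the first base of the element lay 57 to 83 bp upstream of the start, with a median of 61 bp, and at 11 of them it lay 60 or 61 bp upstream. The letters GTC, seen in the printed sequences 6 bases after the element, were present at that spacing at all 21 of these genes and at 31 of the 32 snoRNA genes with the element. They followed it at 32 of the 41 snRNA genes and at 4 of the 71 protein-coding genes. The summits lay a median of 43 bp downstream of the first base of the element and 18 bp upstream of the gene start. Signals at these genes ran from 54.9 to 244.1 with a median of 103.1. Protein-coding starts were within 1000 bp of the summit at 6 of the 21.

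**Figure D3:**
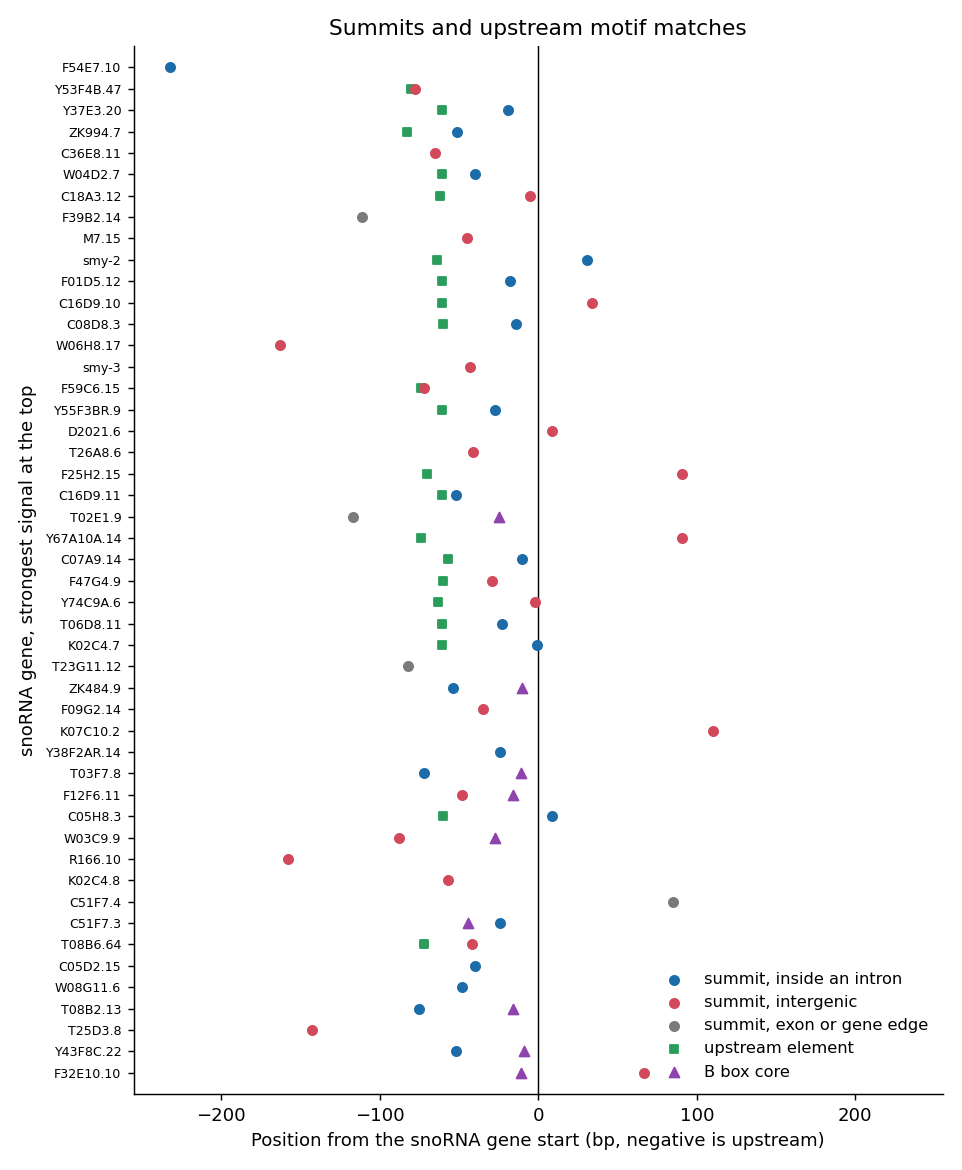
Position of the optimal summit (circles, coloured by context), the upstream element (squares, first base) and the B box core (triangles, first base) at each of the 48 snoRNA genes, on an axis in bp from the gene start with the strongest signal at the top. Squares form a column 57 to 83 bp upstream at 21 genes, triangles lie 9 to 44 bp upstream at 9 genes, and no gene has both.

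The 11 snoRNA genes that had the element but no optimal summit also carried it 55 to 85 bp upstream of the start. At 2 of them its first base lay 60 or 61 bp upstream, so the placement was not particular to genes with an optimal summit. GTC followed at the same spacing in 10 of the 11. W03B1.17 (24.2, rank 7689), F54F11.6 (22.7, rank 9197) and Y48A6C.10 (21.4, rank 10811) had weak pooled summits, and the other 8 had none. Of these 11 genes, 1 was 100 bp or shorter, and their median length was 157 bp, against 79 bp at the 21. Among snoRNA genes with the element, an optimal summit was thus counted at 14 of 15 genes of up to 100 bp and at 7 of 17 longer ones.

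B box cores were found within 100 bp upstream, on the gene's strand, at 9 of the 48 genes with an optimal summit (18.8%). The share was 15 of 80 (18.8%) at genes with a ranked summit only and 9 of 218 (4.13%) at genes with no pooled summit, against 1.43% of protein-coding and 1.39% of all genes. Its first base lay 9 to 44 bp upstream with a median of 16 bp, and the summit lay a median of 44 bp upstream of it. Signals at the 9 genes ran from 50.2 to 87.1 with a median of 59.7, lower than at genes with the upstream element though the ranges overlap. They were T02E1.9, ZK484.9, T03F7.8, F12F6.11, W03C9.9, C51F7.3, T08B2.13, Y43F8C.22 and F32E10.10. None of the 48 genes had both motifs, 30 had one, and 18 had neither.

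**Figure D4:**
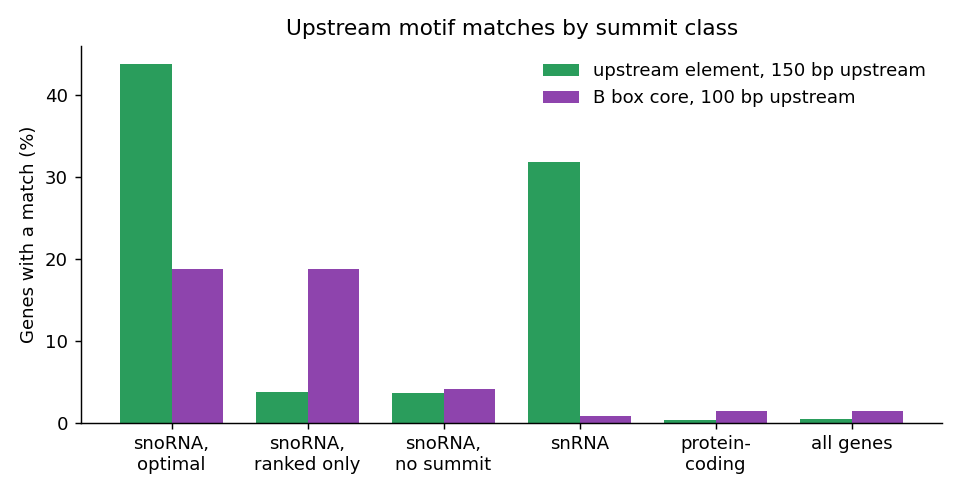
Percentage of genes with a match to the upstream element (150 bp upstream) and to the B box core (100 bp upstream), on the strand of the gene, for snoRNA genes by summit class and for other gene types. The element stands at 43.8% of snoRNA genes with an optimal summit and 31.8% of snRNA genes, and at under 4% in the other classes.

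Genes with neither motif made up 18 of the 48, or 6.38% of the 282 snoRNA genes that lacked both, against 46.9% of the 64 that had either. In 12 of these 18 windows, the summit was within 1000 bp of a protein-coding start. They included F54E7.10, F39B2.14 and D2021.6, whose summits lay 141, 50 and 174 bp from the starts of ska-3, tmem-107 and sdha-1. F39B2.14 and D2021.6 were the 2 genes with the upstream element on the opposite strand, which is not counted as a match here. The 18 comprised 4 intronic and 11 intergenic genes.

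Letters of known Hox sites were counted in the same windows, without a test of any difference. TGATNNAT, the composite site of Hox proteins with their PBC partners, was found on either strand in 15 of 48 windows with an optimal summit (31.2%), 38.8% of those with a ranked summit only, 24.3% of those with none and 35.1% of all gene windows. The homeodomain core TAATTA was found in 6 of 48 (12.5%), 21.2%, 17.0% and 24.8%. In 1 window the composite match overlapped a C box of the snoRNA itself, which shares letters with it. A match is a description of the letters, and a window with no match says nothing of the protein. Base composition differed between the classes. The median GC content upstream of the start was 51.3% at genes with an optimal summit, 45.3% at those with a ranked summit only and 41.0% at those with none, and its part in the counts was not tested.

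Shorter snoRNA genes held optimal summits more often. Of the 95 genes of up to 100 bp 25 did (26.3%), and of the 251 longer genes 23 did (9.16%), a division made after the lengths were seen. Median lengths were 96 bp with an optimal summit, 129 bp with a ranked summit only and 132 bp with none. The order was the same within introns, 13 of 53 short genes (24.5%) against 8 of 116 (6.9%), and between genes, 10 of 30 (33.3%) against 13 of 94 (13.8%). Without the upstream element the shares were 11 of 80 short genes (13.75%) and 16 of 234 longer ones (6.84%). By letters, 15 genes had a C box and a D box, and 7 of them had an optimal summit: C18A3.12, C16D9.10, C08D8.3, Y55F3BR.9, Y74C9A.6, W03C9.9 and C51F7.3. An ACA box was found at 58 genes, 56 of them longer than 100 bp, and 6 had an optimal summit: F54E7.10, K02C4.8, C05D2.15, W08G11.6, T08B2.13 and Y43F8C.22. These strict letters named few of the 346 genes, so most have no class here. The share with an optimal summit over all 346 was 13.9%. Each of the 7 C/D genes also had an upstream motif, the B box core at W03C9.9 and C51F7.3 and the upstream element at the others. Of the 6 ACA genes, T08B2.13 and Y43F8C.22 had the B box core and the others neither motif. Whether the boxes or the upstream motifs go with the summits was not tested.

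The replicates ranked the windows in which both had a summit in a similar order. A summit was present in either replicate in 173 windows and in both in 100. All 48 windows with an optimal summit were among the 100, but the optimal set was itself drawn from both replicates together. Over the 100, Spearman's rho between the replicate signals was 0.8, given as a description. Over the 48, a set selected in this way, it was 0.71. Within the 1488 strongest regions of each replicate lay 41 windows by replicate 1, 48 by replicate 2, 34 by both and 55 by either. The summits of the replicates lay within 100 bp of each other in 43 of the 48 windows and at most 181 bp apart. After Y37E3.20, ranks differed most at W08G11.6 (7566 and 839) and Y43F8C.22 (7129 and 803), both ranked higher by replicate 2, and both near the lower edge of the optimal set with pooled signals of 54.2 and 52.4.

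**Figure D5:**
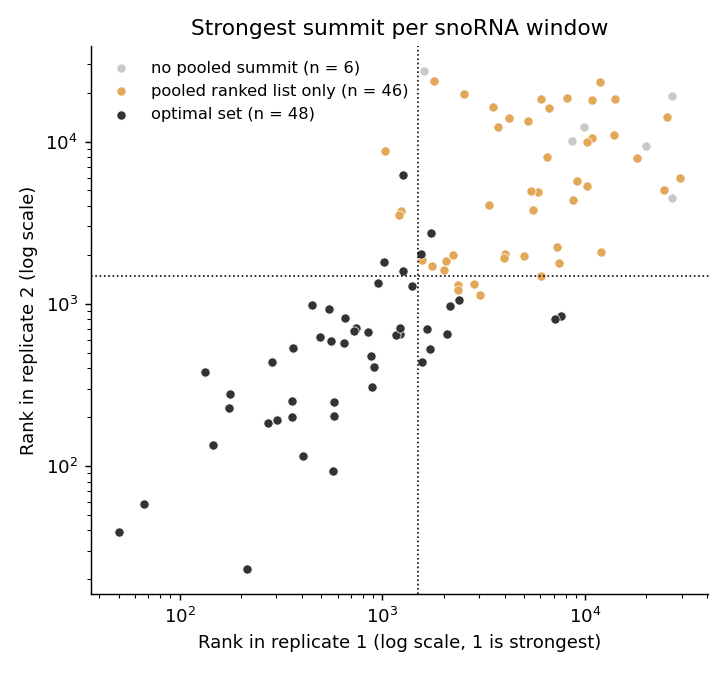
Rank of the strongest summit in replicate 1 against replicate 2, on log axes where 1 is the strongest, for the 100 snoRNA windows with a summit in both. Dotted lines mark rank 1488, and 34 of the 48 optimal windows lie within it in both replicates.

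Just inside the optimal set lay F32E10.10 with 50.2 (rank 1478). Just outside lay ZK643.9 with 49.6 (rank 1515), F11A10.9 with 49.4 (rank 1523), C53B7.8 with 49.4 (rank 1528), M106.6 with 49.0 (rank 1547), T04A8.17 with 48.2 (rank 1592) and C41C4.11 with 47.8 (rank 1612). The edge of the set therefore divides windows of nearly equal signal. F11A10.9, C53B7.8, M106.6 and C41C4.11 held the B box core, and their summits lay 100, 74, 21 and 56 bp upstream. The 80 windows with a ranked summit only had a median signal of 24.4 and a median rank of 7469. Their summits were upstream in 50 of 80, and 40 were within 100 bp of the start, a looser placement than the 41 of 48 in the optimal set.

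By chromosome, optimal summits were counted in 10 of 74 snoRNA windows on I (13.5%), 10 of 71 on II (14.1%), 5 of 54 on III (9.26%), 9 of 59 on IV (15.3%), 13 of 55 on V (23.6%) and 1 of 33 on X (3.03%). The shares of protein-coding windows on the same chromosomes were 5.0%, 3.33%, 5.91%, 3.75%, 2.64% and 1.9%. The snoRNA share was the higher on each of the 6 chromosomes, though on X it rests on 1 window, D2021.6, with 97.1. No difference between chromosomes was tested.

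Some genes of the proteins that work with snoRNAs held a summit at their start. Of 11 such genes, 3 had an optimal summit within 250 bp of the start, a count too small to set beside the 3.61% of protein-coding genes. ruvb-2, an ATPase of the assembly machinery, had 213.1 (123.9 and 86.3 in the replicates), 119 bp upstream. fib-1, the fibrillarin gene, had 91.2 (60.2 and 31.9), 57 bp upstream. nol-56, a core C/D protein gene, had 82.0, 245 bp upstream and at the edge of the window, with 47.6 in replicate 1 and no replicate 2 summit in the window. Ranked pooled summits outside the optimal set stood at snu-13 (45.5), ruvb-1 (38.4), dao-5 (37.5), dkc-1 (18.4) and nola-3 (15.8), and none stood at nol-58, garr-1 or Y48A6B.3. Of the H/ACA core genes dkc-1, garr-1, Y48A6B.3 and nola-3, none had an optimal summit. These are too few to set beside the C/D genes or the 3.61% of protein-coding genes.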

How the data were processed

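LIN-39-eGFP ChIP-seq of L1 larvae (2 biological replicates, 1 group, numbered as in the labels) was read from region lists on the ce11 build. Per the deposited file notes, they rest on aligned reads of each replicate and of a control. Which aligner, peak caller and cutoff the authors used is not given in the sources used here. Each region's deposited signal is the authors' score against the control, with an unstated scale, and the deposited summit offset, another number per region in bp, placed the summit. The lists held 30000 ranked regions for replicate 1, replicate 2 and both pooled, and 1488 optimal peaks. Lists on the ce10 build, alignments and the control were not used here. Depth is unknown, and signals of different lists were not compared.

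Windows of 250 bp either side of gene starts (Ensembl release 115, WBcel235) were scored by their strongest summit with scipy 1.17.1, pandas 2.3.3, numpy 2.4.6 and matplotlib 3.10.9 under Python 3.11.15. Exact Clopper-Pearson intervals (95%) are descriptions that treat windows as independent and leave out variation between the replicates. No significance test was run, because the snoRNA genes and all lists and motifs were chosen with earlier results of these data known. Named genes were all with an optimal summit (values for the 15 strongest), the 6 strongest below that set, the 3 with the most different replicate ranks, hosts and neighbours of these, and all 11 genes of snoRNA-binding proteins. The element's letters, its spacing, the length division and 6 printed starts were chosen after the sequences were seen, as were other genes named outside the rule. Printed starts leave out windows on chromosome I and those with a summit over 100 bp from the start, such as F54E7.10. On simulated data, 100 of 100 planted summits were found with the right position, and 0 when placed 1 bp outside the window. That checks the scoring code only and says nothing of how well summits were detected.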

Additional observations from a re-analysis of the deposited data

How the results depend on the processing

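Of 49 alternative settings, 42 left a count within 1.5 times its main value or a median within its interval, and no median offset changed sign. Some settings could change little: chromosome X held 1 of the 48 windows, and merging overlapping windows gave 47. The limit of 1.5 times is wide, and the 69 windows found with the strongest 3000 pooled regions fell within it. The 42 is therefore a tally of settings and no measure of robustness. Shares over all gene windows were not computed under the alternative settings, so the excess of snoRNA windows was not followed through them. Windows of 1000 bp either side raised the count of snoRNA windows with an optimal summit from 48 to 75. Intronic genes rose from 21 to 42 and intergenic genes from 23 to 29. There the intronic share (24.9%) passed the intergenic one (23.4%); the intergenic share was the higher under the other 7 of 8 settings of window, list or replicate. The stronger 744 peaks of the optimal set left 26 windows, 10 intronic and 14 intergenic. Leaving out a replicate, by taking the 1488 strongest regions of the other, gave 41 to 48 windows, 17 to 21 intronic and 21 to 23 intergenic. These were not all the same windows. Of the 48 optimal windows, 37 were among the strongest of replicate 1, 43 among those of replicate 2 and 2 among neither. Windows in the strongest regions of both replicates rose from 34 to 59 when the strongest 5000 were taken. With hosts of any type other than a small RNA, 16 intronic and 20 intergenic windows held an optimal summit, so the line between the contexts depends on which hosts count. The upstream element stood at 21 of the 48 optimal windows. A search for the 7 letters CGGAACC, with no free letter, gave 12 of the 48, and a search for the element over 250 bp on either strand gave 23. Among the strongest 1488 regions of each replicate alone, 20 windows had the element. These settings of the element were chosen after seeing the data. No paired analysis was possible because there is 1 group and no comparison between groups. Depth, the control and the absence of an untagged sample limit what a count of summits can show: a window without a summit was not called in these lists, which is not evidence that it was unbound.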
